A study of Mus musculus with 12 samples.

Results

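The interferon response was described through 37 mouse genes: interferon receptors, interferon regulatory factors (IRFs) with Stat2, cytosolic sensors and genes that interferons induce. The genes were chosen by name, and 36 of the 37 had at least 1 probe on the array, 55 probes in all. Of the 36, 35 were among the 18703 genes and unnamed probes tested, out of 27774. Xaf1 had no probe. Irf4, a lymphocyte factor, had a probe that was well above background on 1 of 3 HESKOL dexamethasone-treated, 2 of 3 HESKOL untreated, 0 of 3 WT dexamethasone-treated and 2 of 3 WT untreated arrays, and it was not tested. The other 35 were well above background on all 12 arrays.

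Liver RNA came from 12 male C57BL/6 mice aged 8 to 10 weeks, one array per mouse, with 3 mice in each of 4 groups. The groups were HESKOL mice given dexamethasone (HESKOL dex), untreated HESKOL mice, wild-type mice given dexamethasone (WT dex) and untreated wild-type mice. Every mouse, controls included, was adrenalectomized, which removes the main source of its own glucocorticoids. Dexamethasone, a synthetic glucocorticoid, was injected into the peritoneum at 1 mg/kg and the liver was taken 6 hours later. Whether untreated mice received a vehicle is not stated. The labels call HESKOL a knockout mouse without spelling the name out, and they do not say which part of Hes1, the repressor named in the study's title, was altered or in which cells. Values are the log2 signal minus the 75th percentile of the same array, and changes are differences of these values with the standard error (SE) of the limma fit.

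Interferons are cytokines, and cells release those of type I on sensing foreign nucleic acid. Type I interferons act through Ifnar1 and Ifnar2 and switch on genes through ISGF3, a complex with Stat2 and Irf9 that binds the interferon-stimulated response element (ISRE); interferon-gamma acts through Ifngr1 and Ifngr2 and the gamma-activated site (GAS). In liver, hepatocytes, Kupffer cells and other resident immune cells all respond, and glucocorticoids are known to restrain inflammatory and interferon-driven transcription in immune cells.

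The promoters below show where these elements lie in a factor, a GTPase and a pair of antiviral genes whose values are given later. They are the 250 bases before the gene start in RefSeq, build GRCm38.p6, read 5′ to 3′ on the gene's strand, with matches on either strand to GAAA, any 2 bases and GAAA again (an ISRE core) or to TTCNNNGAA (a GAS) in capitals. Their positions are chr11:53769764-53770013, plus strand, for Irf1, chr11:58199306-58199555, plus strand, for Igtp, chr19:34640639-34640888, plus strand, for Ifit1 and chr4:156200819-156201068, minus strand, for Isg15.
Irf1: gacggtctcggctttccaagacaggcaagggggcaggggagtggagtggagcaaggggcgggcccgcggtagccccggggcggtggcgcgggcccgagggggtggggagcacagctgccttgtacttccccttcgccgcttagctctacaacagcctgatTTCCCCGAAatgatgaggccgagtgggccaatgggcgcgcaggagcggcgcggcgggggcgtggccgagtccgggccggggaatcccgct
Igtp: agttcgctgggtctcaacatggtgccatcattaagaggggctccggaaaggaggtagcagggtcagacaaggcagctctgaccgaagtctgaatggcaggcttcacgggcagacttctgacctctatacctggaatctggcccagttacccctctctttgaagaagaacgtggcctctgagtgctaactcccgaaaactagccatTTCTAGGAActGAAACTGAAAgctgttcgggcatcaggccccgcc
Ifit1: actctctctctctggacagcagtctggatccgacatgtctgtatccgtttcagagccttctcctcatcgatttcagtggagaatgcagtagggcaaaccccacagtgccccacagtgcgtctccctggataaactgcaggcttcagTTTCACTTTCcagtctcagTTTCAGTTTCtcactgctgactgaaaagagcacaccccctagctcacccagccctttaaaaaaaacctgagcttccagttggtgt
Isg15: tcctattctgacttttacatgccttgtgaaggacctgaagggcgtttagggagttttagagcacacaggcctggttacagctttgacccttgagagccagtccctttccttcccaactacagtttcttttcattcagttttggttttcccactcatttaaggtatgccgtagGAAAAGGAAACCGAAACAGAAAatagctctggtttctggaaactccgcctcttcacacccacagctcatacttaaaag
Irf1 held a GAS whose first base lay 90 bases before the start. Igtp held a GAS at 45 and an ISRE core at 34 bases before the start, next to each other and not overlapping. Ifit1 held ISRE cores at 104 and 85, and Isg15 held 3 overlapping ones, at 78, 72 and 66. Over windows reaching 50 bases past the start, 13 of the 31 genes with a RefSeq promoter (41.9%) held the ISRE core, against 3.99% of 27025 genes. A GAS was found in 10 of 31 (32.3%), against 9.55% of all genes. The windows of Irf5, Irf9 and Oasl1 held neither motif. These are matches of letters and not binding sites. Mx1, Mx2, Oas2, Usp18, Iigp1 and Zbp1 had no entry in the promoter table.

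One array did not carry the marks of its label. Fkbp5, a direct glucocorticoid receptor target, read 3.93, 2.48 and 3.28 in HESKOL dex livers, -0.10, -0.64 and -0.47 in untreated HESKOL livers, -0.998, 3.45 and 3.98 in WT dex livers and 0.33, 1.19 and -0.65 in untreated WT livers. The array labelled WT dex replicate 1 was thus below every untreated array for Fkbp5, and with 2.40 it was also the lowest of all 12 for Tsc22d3, another glucocorticoid target. Its interferon genes also stood apart: their root mean square distance from the other arrays of its group was 1.59, against 0.34 to 1.01 for the other 11. The main results that rest on it are also given without it. Hes1 itself was lower in HESKOL dex than in WT dex livers (-1.10, adjusted p = 0.249) and in untreated HESKOL than in untreated WT livers (-1.12, adjusted p = 1), without passing the test in either. Without the array labelled WT dex replicate 1 the Hes1 difference between treated genotypes was -0.57 (limma adjusted p = 0.431). Arrays lay on 3 slides, and no slide held treated and untreated arrays of one genotype. All 3 HESKOL dex arrays shared a slide with WT dex replicate 3, WT dex replicates 1 and 2 shared one with 2 untreated HESKOL arrays, and all 3 untreated WT arrays shared one with 1 untreated HESKOL array. With slide in the fit, the dexamethasone effect in HESKOL liver is therefore reached only through the WT dex arrays, and that in WT liver only through the untreated HESKOL arrays. Per the file headers, the slide of the HESKOL dex arrays was also scanned on a different day from the other slides. In HESKOL liver, dexamethasone and scan day therefore cannot be told apart.

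The first question was what dexamethasone did to interferon genes in HESKOL liver. Most of them were lower: 30 of 35 changes were below 0, against 50.2% of all features tested, and the median change was -0.82, against -0.003 over all features. Of these, 5 passed the test, all lower in HESKOL dex livers: Irf1, Irf5, Irf9, Igtp and Iigp1. Over all features 7.83% passed, 4.2% as lower and 3.63% as higher. In 20 genes every HESKOL dex array lay below every untreated HESKOL array (18.7% of all features did), and in 1, Ifnar2, above (15.6%). In the heat map of the 35 genes by array the HESKOL dex columns are mostly blue.

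**Figure D1:**
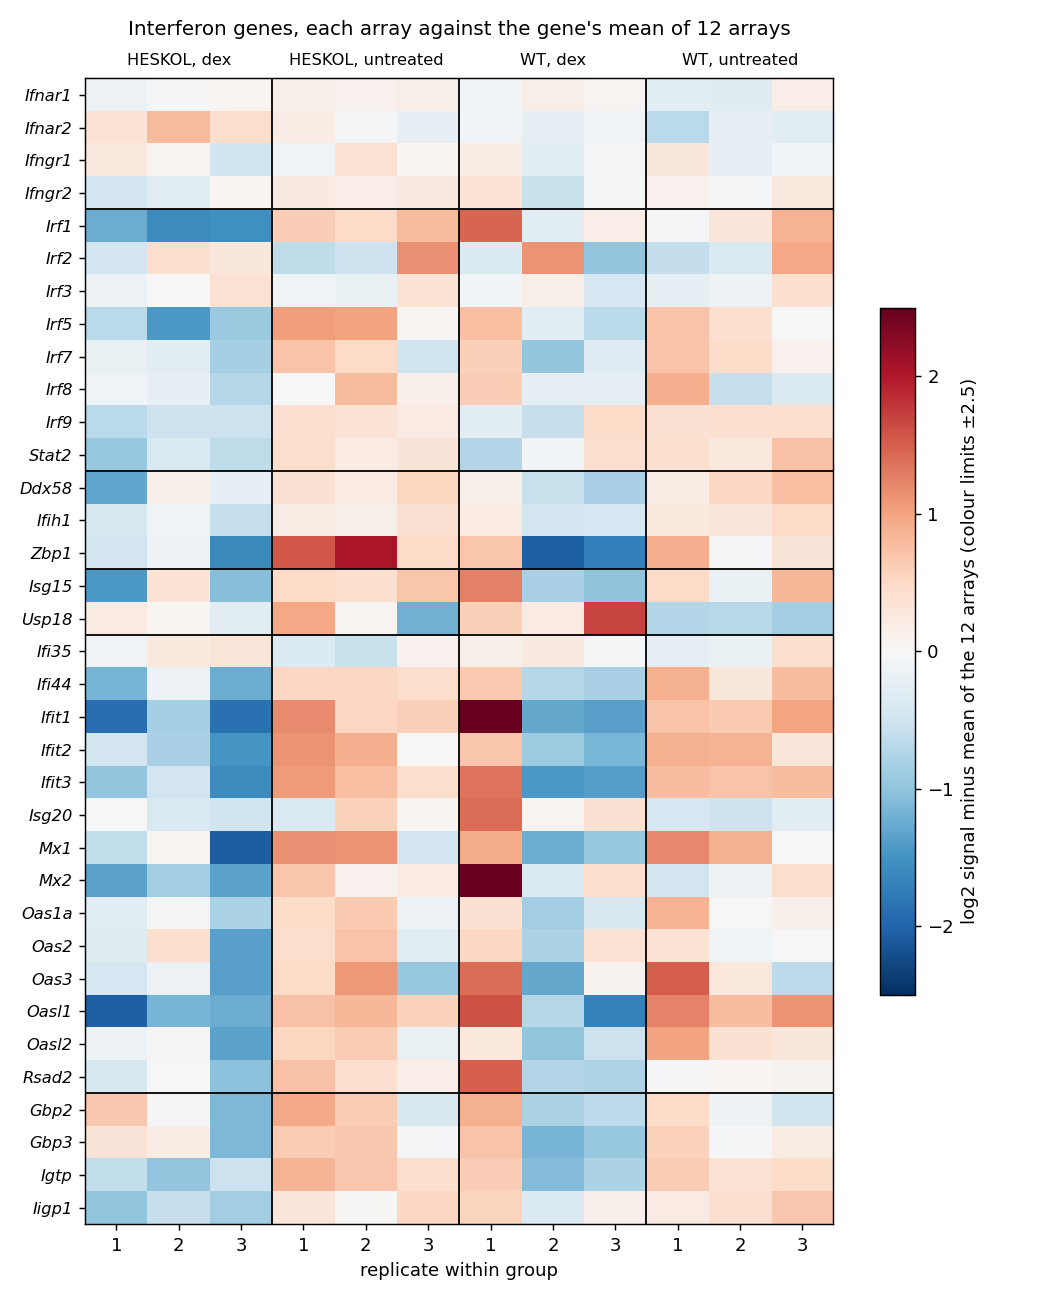
Log2 signal of the 35 tested interferon genes on each of the 12 arrays, minus the gene's mean over the 12 arrays; columns are replicates 1 to 3 of each group, rows are grouped by role from receptors (top) to interferon-gamma GTPases (bottom), and colours end at ±2.5. Under WT dex, replicate 1 is red where replicates 2 and 3 are blue for most induced genes.

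Irf1, a transcription factor that interferon-gamma induces through its GAS, fell with the smallest p of the set. It read 2.09, 1.74 and 1.79 in HESKOL dex livers (mean 1.87 ± 0.19, SD, n = 3) and 3.95, 3.83 and 4.13 in untreated HESKOL livers (3.97 ± 0.15). The spread within each group was much smaller than the gap between them. The change was -2.09 (SE 0.39, limma adjusted p = 0.0121), a 4.27-fold fall, and its second probe gave -2.16. Irf5, which acts below Toll-like receptors in macrophages and dendritic cells, read 0.12, -0.65 and -0.15 in HESKOL dex livers and 1.83, 1.79 and 0.84 in untreated HESKOL livers. No HESKOL dex array reached the lowest untreated one, and the change was -1.71 (SE 0.40, adjusted p = 0.0275).

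Irf9, the DNA-binding subunit of ISGF3, read 0.32, 0.47 and 0.45 in HESKOL dex livers and 1.40, 1.34 and 1.20 in untreated HESKOL livers. Both groups were tight, with SDs of 0.08 and 0.10, against 0.53 in WT dex livers. The change of -0.90 passed with a limma adjusted p of 0.0489, and its SE of 0.25 pools the spread of all 4 groups. Stat2, its partner in the complex, changed by -0.98 and did not pass (adjusted p = 0.0598). Igtp and Iigp1 are GTPases that interferon-gamma induces and that act on vacuoles holding intracellular parasites. Igtp read 2.57, 2.21 and 2.66 in HESKOL dex livers and 4.04, 3.85 and 3.61 in untreated HESKOL livers, a change of -1.36 (SE 0.37, adjusted p = 0.0489). Iigp1 read 4.69, 5.09 and 4.81 in HESKOL dex livers and 5.97, 5.69 and 6.18 in untreated HESKOL livers, a change of -1.08 (SE 0.26, adjusted p = 0.0318). For both GTPases the HESKOL dex arrays all lay below the untreated ones.

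**Figure D2:**
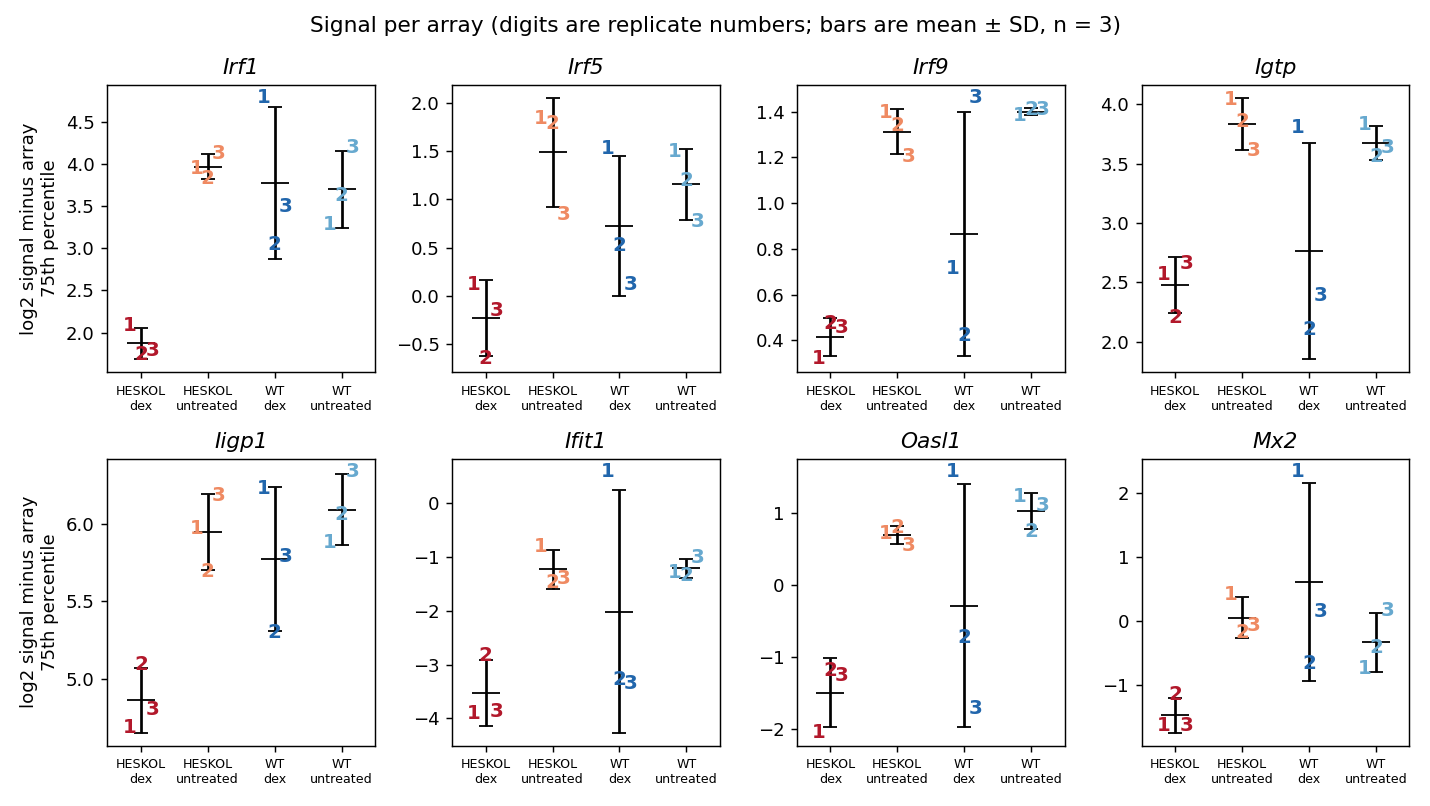
Log2 signal minus the array's 75th percentile for Irf1, Irf5, Irf9, Igtp, Iigp1, Ifit1, Oasl1 and Mx2; digits are the replicate numbers of single mice and bars are the group mean ± SD (n = 3). Within HESKOL the dex arrays sit below all untreated ones for each of the 8 genes, and WT dex replicate 1 sits far above replicates 2 and 3 for Ifit1, Oasl1 and Mx2.

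The antiviral effectors had some of the largest differences and the widest spread. Of the 14 tested, 13 were below 0 with a median of -1.13, and 0 passed. Ifit1, which binds foreign RNA by its cap, read -3.91, -2.83 and -3.87 in HESKOL dex livers and -0.81, -1.48 and -1.40 in untreated HESKOL livers. The groups do not overlap, yet the change of -2.31 (SE 0.84) had an adjusted p of 0.116. Its SE pools the spread of all 4 groups, WT dex included. Oasl1, which in mice restrains translation of Irf7, changed by -2.19 (adjusted p = 0.0591). Rsad2, the antiviral enzyme viperin, read -0.56, -0.15 and -1.17 in HESKOL dex livers and 0.58, 0.27 and 0.01 in untreated HESKOL livers (-0.91, adjusted p = 0.304). Oas2, a synthetase that activates RNase L, read -2.26, -1.52 and -3.31 in HESKOL dex livers and -1.52, -1.25 and -2.22 in untreated HESKOL livers (-0.70, adjusted p = 0.387). The Rsad2 arrays separate by group and the Oas2 arrays overlap. Ifit3 (-1.77), Ifit2 (-1.59) and Ifi44 (-1.34) did not pass either, with adjusted p from 0.0642 to 0.103, Oas3, Oasl2, Oas1a and Isg20 lay between -0.84 and -0.38, and Ifi35 stood at 0.41. Mx1 and Mx2 code for antiviral GTPases, although C57BL/6 and most other laboratory strains carry defective alleles. Mx2 read -1.63, -1.15 and -1.62 in HESKOL dex livers and 0.42, -0.18 and -0.07 in untreated HESKOL livers (-1.52, adjusted p = 0.143), and Mx1 changed by -1.47 (adjusted p = 0.217).

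Among sensors, the Isg15 system and receptors, 0 of 3, 0 of 2 and 0 of 4 passed in HESKOL liver. Zbp1, a sensor of Z-form nucleic acid, read -0.08, 0.26 and -1.23 in HESKOL dex livers and 1.95, 2.43 and 0.87 in untreated HESKOL livers (-2.10, adjusted p = 0.0853). Ifih1, the sensor MDA5, read 1.29, 1.59 and 1.11 in HESKOL dex livers and 1.87, 1.80 and 2.06 in untreated HESKOL livers (-0.58, adjusted p = 0.147). Neither gene's groups overlap. Isg15, a ubiquitin-like modifier, read -1.09, 0.70 and -0.72 in HESKOL dex livers and 0.82, 0.75 and 1.04 in untreated HESKOL livers (-1.24, adjusted p = 0.224), so that HESKOL dex replicate 2 came close to the untreated arrays. Usp18, which removes Isg15 and damps signalling at Ifnar2, read 1.61, 1.45 and 1.12 in HESKOL dex livers and 2.37, 1.47 and 0.21 in untreated HESKOL livers (0.05, adjusted p = 0.964). Ifnar2 was the one gene with all HESKOL dex arrays higher, at 4.10, 4.55 and 4.20, against 3.93, 3.69 and 3.55 in untreated HESKOL livers (0.56, adjusted p = 0.128). Its other probe gave -0.26, so the 2 probes disagree in sign. Irf7, which drives type I interferon genes, read 0.73, 0.65 and 0.08 in HESKOL dex livers and 1.61, 1.40 and 0.41 in untreated HESKOL livers, which overlap (-0.65, adjusted p = 0.362). Gbp2, a guanylate-binding protein induced by interferon-gamma, read 0.24, -0.47 and -1.58 in HESKOL dex livers and 0.51, 0.18 and -0.84 in untreated HESKOL livers, which also overlap (-0.55, adjusted p = 0.588). Of the remaining genes Ddx58, the sensor RIG-I, was at -0.82, Irf8 at -0.65, Gbp3 at -0.63, Ifngr2 at -0.43 and Ifnar1 at -0.16, Irf2 and Irf3 stood at 0.08 and 0.05, and none passed.

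How many genes passed differed between fits. Without the array labelled WT dex replicate 1, which belongs to neither HESKOL group but adds to the pooled spread, 14 of 35 passed, all lower (14.9% of all features passed, 8.13% as lower). The added genes were Stat2, Ifit1, Ifit2, Ifit3, Ifi44, Mx2, Oasl1, Rsad2 and Zbp1. With slide as a fixed block, 0 passed and the median change was -0.33, with Irf1 at -1.69 (adjusted p = 0.786) and 0% of all features passing. Without the array labelled WT dex replicate 1, that fit gave a median change of -1.08, Irf1 at -2.55 (adjusted p = 0.309) and Ifit1 at -2.03, against -0.09 with it, and again 0 of 35 passed (0.00533% of all features). Also 0 passed without HESKOL dex replicate 2 or without untreated HESKOL replicate 1, Irf1 included.

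In wild-type liver dexamethasone gave 0 of 35 past the test (0.198% of all features passed), with 8 at an unadjusted p under 0.05 in the limma fit (11.8%). Changes were below 0 in 27 genes (52.1% of all features) with a median of -0.43, and groups did not overlap for 3 lower genes (5.97%) and 2 higher ones (6.13%). In 25 genes the change was below 0 in both genotypes, as in 36.1% of all features.

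The 3 treated wild-type livers did not behave alike. On WT dex replicate 2, 26 of 35 genes lay below all 3 untreated WT arrays (26.2% of all features), and on replicate 3, 22 did (37.6%). On the array labelled WT dex replicate 1, 5 lay below (25.2%) and 15 lay above (26.5%). HESKOL dex replicates 1, 2 and 3 had 23, 21 and 30 genes below all untreated HESKOL arrays (37.5%, 31.2% and 32.8% of all features). Ifit1 read 0.59, -3.28 and -3.35 in WT dex livers and -1.28, -1.34 and -1.01 in untreated WT livers. Replicates 2 and 3 were far below the untreated arrays and replicate 1 was above them.

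Without that array, 8 genes passed in wild-type liver, all lower in WT dex livers: Ifi44, Ifih1, Ifit1, Ifit2, Ifit3, Igtp, Oasl1 and Zbp1 (5.96% of all features passed, 3.42% as lower and 2.54% as higher), and the median was -0.77. Of these 8, 7 were also among the 14 that passed in HESKOL liver when the same array was left out, the exception being Ifih1. The matching share over all features was not computed, and both calls use the same pooled spread of each gene. The overlap is therefore a count only. Ifit1 then changed by -2.11 (SE 0.34, adjusted p = 0.010), Ifit3 by -2.15 (adjusted p = 0.006) and Igtp by -1.43 (adjusted p = 0.009). Igtp read 3.80, 2.10 and 2.39 in WT dex livers and 3.83, 3.56 and 3.64 in untreated WT livers. For this gene replicate 1 lay among the untreated arrays. With 2 arrays left in the WT dex group, its spread rests on the other groups as well.

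**Figure D3:**
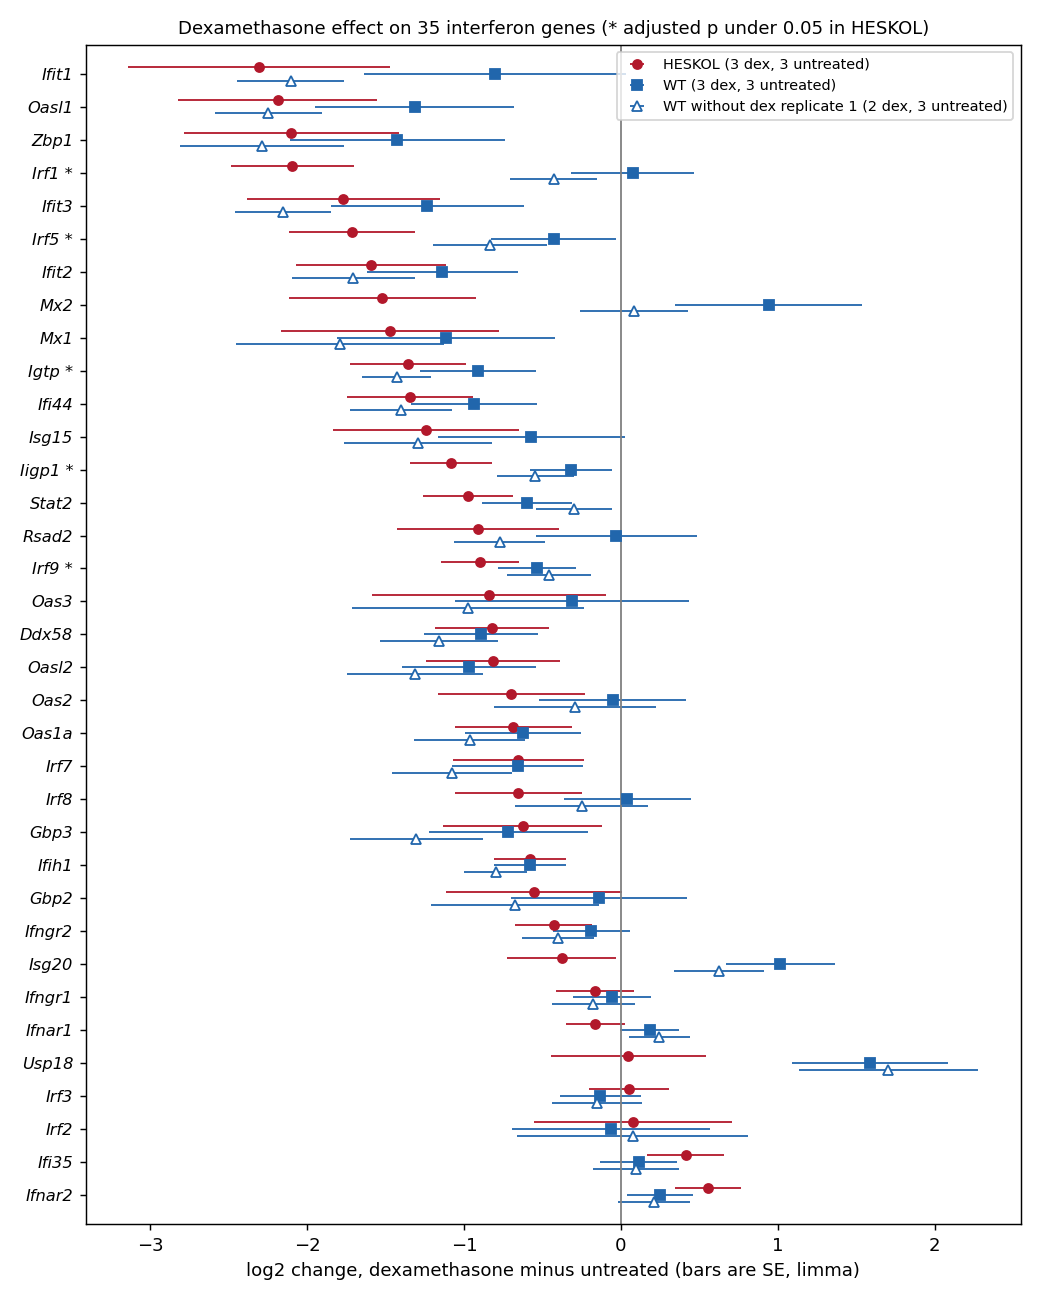
Log2 change with dexamethasone (treated minus untreated, x axis) for each of 35 interferon genes (y axis, ordered by the HESKOL change), with SE bars from limma: red circles HESKOL, filled squares WT, open triangles WT without the array labelled dex replicate 1. For Ifit1, Oasl1, Zbp1, Ifit2, Ifit3, Igtp and Ifi44 the open triangles lie near the circles. For Irf1, Irf5, Irf9, Iigp1, Stat2, Mx2, Usp18 and Isg20 they lie to the right of them.

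The wild-type genes with the smallest p went both ways. Usp18 read 2.01, 1.62 and 3.103 in WT dex livers and 0.68, 0.72 and 0.56 in untreated WT livers, higher on all 3 treated arrays (1.59, SE 0.50, adjusted p = 0.249). Isg20, an exonuclease that degrades RNA, read 1.06, -0.28 and 0.04 in WT dex livers and -0.77, -0.86 and -0.60 in untreated WT livers (1.02, SE 0.35, adjusted p = 0.297), also without overlap. Without the array labelled WT dex replicate 1 the Isg20 change was 0.63 (adjusted p = 0.24), and that of Usp18 was 1.705 (adjusted p = 0.112). Ifih1 read 1.90, 1.22 and 1.25 in WT dex livers and 1.95, 1.99 and 2.18 in untreated WT livers (-0.58, SE 0.23, adjusted p = 0.361), lower on all 3, replicate 1 by the least. None of these passed. Zbp1 read 1.08, -1.66 and -1.35 in WT dex livers and 1.29, 0.36 and 0.70 in untreated WT livers.

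Without dexamethasone the interferon genes were close between the genotypes. Of 35 genes, 0 passed (0% of all features), and 0 had an unadjusted p under 0.05 in limma (1.59% of all features did). The median difference between untreated HESKOL and untreated WT livers was 0.01. The smallest p belonged to Ifnar2, Zbp1 and Usp18, with differences of 0.35, 0.97 and 0.70, each with an adjusted p of 1. Ifnar2 read 3.93, 3.69 and 3.55 in untreated HESKOL livers and 3.08, 3.55 and 3.47 in untreated WT livers. Rsad2 read 0.58, 0.27 and 0.01 in untreated HESKOL livers and -0.19, -0.11 and -0.07 in untreated WT livers. These 2 genes were higher on all untreated HESKOL arrays, although by little, and 4.16% of all features were.

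After dexamethasone, 1 gene differed between the genotypes. Irf1 read 2.09, 1.74 and 1.79 in HESKOL dex livers and 4.78, 3.05 and 3.50 in WT dex livers, and it was lower in HESKOL dex livers, with a difference of -1.90 (SE 0.39, limma adjusted p = 0.048, a 3.74-fold difference). Over all features 1.14% passed, 0.444% as lower. All 3 HESKOL dex arrays lay below all 3 WT dex arrays, and below the untreated arrays of both genotypes. Without the array labelled WT dex replicate 1 the difference was -1.40 (adjusted p = 0.034, with 0.89% of all features lower), and the second Irf1 probe gave -2.26 over all arrays. On the slide that holds the 3 HESKOL dex arrays and WT dex replicate 3, the difference was -1.62 (adjusted p = 0.393 with slide as a fixed block). Irf1 passed under 9 of 25 alternative settings, with adjusted p between 0.019 and 0.393. With 1 of the 12 arrays left out it passed only without WT dex replicate 1 or WT dex replicate 2.

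Among the other genes 28 of 35 differences, Irf1 included, were below 0 (46.6% of all features), with a median of -0.43. Without the array labelled WT dex replicate 1 the median was 0.07. Groups did not overlap for 6 lower genes, Iigp1, Irf1, Irf5, Isg20, Mx2 and Usp18 (7.68% of all features), and for 1 higher gene, Ifnar2 (10.6%). Mx2 read -1.63, -1.15 and -1.62 in HESKOL dex livers and 2.33, -0.65 and 0.16 in WT dex livers (-2.08, SE 0.60, adjusted p = 0.125), a difference of -1.22 (adjusted p = 0.102) without the array labelled WT dex replicate 1. Iigp1 read 4.69, 5.09 and 4.81 in HESKOL dex livers and 6.22, 5.30 and 5.79 in WT dex livers (-0.91, SE 0.26, adjusted p = 0.127). Both were lower on every HESKOL dex array, and neither passed.

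The dexamethasone effects were also compared directly. The difference of the effects (HESKOL minus WT) passed for 0 of 35 genes and for 0.016% of all features, with 5 genes at an unadjusted p under 0.05 in limma (6.64%), all negative: Irf1, Irf5, Isg20, Mx2 and Usp18. Irf1 had the smallest p, with a change of -2.09 in HESKOL liver and 0.07 in WT liver, a difference of -2.17 (SE 0.55, adjusted p = 0.396). Mx2 differed by -2.46 (adjusted p = 0.594) and Isg20 by -1.39 (adjusted p = 0.608). Without the array labelled WT dex replicate 1, 0 passed again (0.0479% of all features), Irf1 stood at -1.67 (SE 0.37, adjusted p = 0.205), Mx2 at -1.60 and Isg20 at -1.003, and the median over the 35 genes was 0.06, against -0.41 with it.

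Other genes of the pathway, from a list of 87 of which 77 were tested, leaned the same way in HESKOL liver. There 13 were lower and 1 higher past the test, against 4.2% and 3.63% of all features, with a median of -0.70. The lower ones included Trim21, an antibody receptor and ubiquitin ligase (-1.59, adjusted p = 0.004), Irgm2, a GTPase related to Igtp (-1.74, adjusted p = 0.010), Oas1b (-1.34, adjusted p = 0.00831) and Parp14 (-1.19, adjusted p = 0.0141). Tlr3, a sensor of double-stranded RNA (-1.05, adjusted p = 0.0129), Il10rb (-0.97, adjusted p = 0.018), Gbp5 (-1.31, adjusted p = 0.0244) and Traf3 (-1.07, adjusted p = 0.0277) were lower too. The gene that rose was Ticam1, the adaptor of Tlr3 (1.16, adjusted p = 0.00787). In wild-type liver 0 of the 77 passed with dexamethasone, and without the array labelled WT dex replicate 1 12 were lower and 3 higher, against 3.42% and 2.54% of all features.

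Feedback inhibitors of the receptor kinases separated the treated genotypes. Of the 77 genes, 2 passed there, Socs1 and Socs3, both lower in HESKOL dex livers (0.444% of all features were). Socs1 read -2.93, -2.86 and -3.23 in HESKOL dex livers and 5.13, 0.28 and 1.52 in WT dex livers (-5.32, SE 0.89, adjusted p = 0.0235). Socs3 read 1.77, 1.33 and 1.76 in HESKOL dex livers and 7.29, 3.17 and 5.26 in WT dex livers (-3.62, SE 0.75, adjusted p = 0.0496). All HESKOL dex arrays were lower in both, and without the array labelled WT dex replicate 1 the differences were -3.91 (adjusted p = 0.00084) and -2.60 (adjusted p = 0.0322). In that fit Socs1 was lower with dexamethasone in HESKOL liver (-1.49, adjusted p = 0.00756) and higher in WT liver (2.51, adjusted p = 0.00407), a difference of the effects of -4.00 (adjusted p = 0.0159).

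Most immune cell markers were lower with dexamethasone in HESKOL liver, as most interferon genes were. In HESKOL liver all 6 tested B cell markers, all 6 NK cell markers and all 9 T cell markers had changes below 0 with dexamethasone, as did 12 of 13 Kupffer cell and macrophage markers. Of these Cd79a, Klrk1, Gzmb, Adgre1 and Lyz2 passed as lower and Cd163 passed as higher, against 4.2% and 3.63% of all features. The log2 of the summed signal of the Kupffer cell and macrophage markers ran from 6.72 to 7.90 on HESKOL dex arrays and from 7.96 to 8.65 on untreated HESKOL arrays. For B cell markers it ran from -2.12 to -0.59 on HESKOL dex arrays and from -0.11 to 1.08 on untreated HESKOL arrays, and for NK cell markers from -2.40 to -1.15 on HESKOL dex arrays and from -0.65 to 1.06 on untreated HESKOL arrays. For T cell markers it ran from 0.03 to 0.30 on HESKOL dex arrays and from 0.65 to 1.04 on untreated HESKOL arrays. None of these 4 sums overlapped between the treated and untreated HESKOL arrays. By the list median, the Kupffer cell and macrophage markers did overlap (2.61 to 3.16 on HESKOL dex arrays, 2.60 to 3.45 on untreated HESKOL arrays). The marker sums of plasmacytoid dendritic cells, a main source of type I interferon, overlapped, from -1.33 to 0.58 on HESKOL dex arrays and from 0.21 to 1.01 on untreated HESKOL arrays. Their list medians did not (-3.98 to -2.64 on HESKOL dex arrays, -2.48 to -1.78 on untreated HESKOL arrays). Hepatocyte marker sums overlapped, from 9.98 to 10.54 on HESKOL dex arrays and from 9.69 to 10.42 on untreated HESKOL arrays. Of the 6 hepatocyte markers tested, 5 had changes above 0 and 1 passed as lower (-1.54), against 4.2% of all features. Neutrophil marker sums overlapped widely, from 1.12 to 5.10 on HESKOL dex arrays and from 3.18 to 7.87 on untreated HESKOL arrays. All 6 neutrophil markers tested had changes below 0, with a median of -2.32, and 0 passed. In wild-type liver 4 of these 6 neutrophil markers were above 0, with a median of 0.58, and a median of -0.20 without the array labelled WT dex replicate 1. All 6 were lower in HESKOL dex than in WT dex livers, with a median of -2.08, and 0 passed. Between untreated livers all 9 T cell, 6 B cell, 6 NK cell and 6 neutrophil markers were higher in HESKOL than in WT. So were all 4 plasmacytoid dendritic cell and 12 of 13 Kupffer cell and macrophage markers, against 58.3% of all features. List medians ran from 0.20 (T cell) to 0.77 (neutrophil), against 0.01 for the 35 interferon genes, of which 20 were above 0. Of these markers 0 passed.

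In wild-type liver the overlap of the marker sums rested on the array labelled WT dex replicate 1 for 3 of the lists. For B cell markers WT dex replicates 1, 2 and 3 read 0.48, -1.58 and -2.55, against -0.43 to 0.39 on untreated WT arrays. For NK cell markers they read -0.15, -1.39 and -2.08, against -0.93 to 1.11 on untreated WT arrays. For Kupffer cell and macrophage markers they read 8.22, 7.23 and 7.10, against 7.46 to 8.47 on untreated WT arrays. Replicates 2 and 3 lay below all untreated WT arrays in these 3 lists and replicate 1 did not. T cell marker sums overlapped with or without it, at 0.83, 0.63 and 0.51 on WT dex arrays and from 0.48 to 0.78 on untreated WT arrays. By the list median, WT dex replicates 2 and 3 (-3.72 and -4.26) lay below the untreated WT arrays (-3.02 to -2.86). Replicate 1 (-2.77) did not. Without that array 2 of 6 B cell markers (median change -1.89) and 3 of 9 T cell markers (-0.97) passed as lower in WT dex livers, against 3.42% of all features. Of the 6 NK cell markers (-1.04) and the 13 Kupffer cell and macrophage markers (-0.62), 0 passed. The NK cell markers Ncr1 and Eomes were not well above background in any whole group and were not tested. The part of these cells in the interferon values was not tested, and in whole liver RNA fewer cells of a type and less RNA per cell cannot be told apart.

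**Figure D4:**
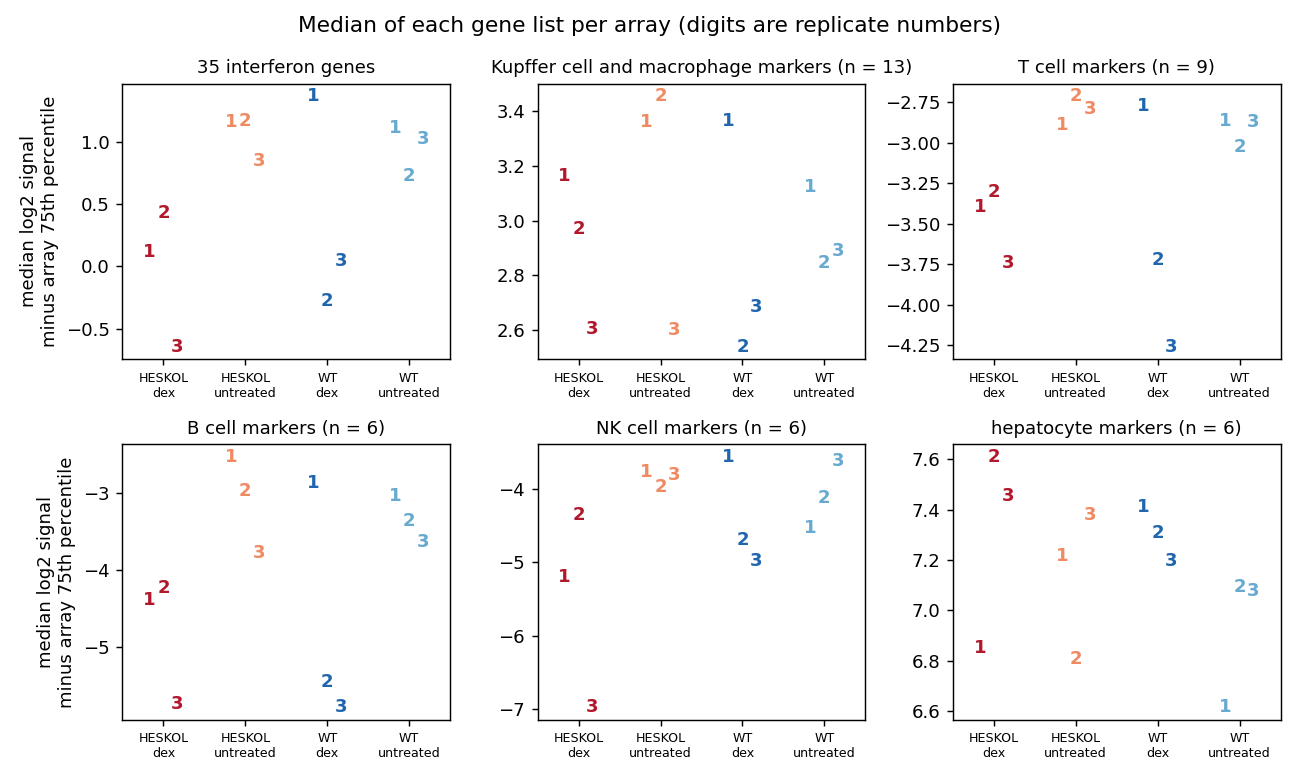
Median log2 signal minus the array's 75th percentile over the 35 interferon genes and over 5 cell type marker lists, for each array (digits are replicate numbers), by group; vertical axes differ between panels. The array labelled WT dex replicate 1 (median 1.36) lies above the untreated arrays (0.72 to 1.17) in the interferon panel, and among or next to them in the T, B and NK cell panels.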

How the data were processed

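Per the file headers, the authors scanned one-colour Agilent arrays (design on the mm7 mouse build) and read their spots with version 9.5.3.1 of Agilent Feature Extraction. The deposited intensity is the processed signal, background-subtracted and on a linear scale, and the deposited series table equals it (ratio 1). The values tested are the log2 of the deposited intensity minus the array's 75th percentile, without control spots and outlier spots. Spots of a probe were averaged, and the probe with the highest mean stood for its gene. Isg15 was taken from a probe that the mm7 design places on chromosome 17, whereas RefSeq lists the gene on chromosome 4. Gbp3 was matched by accession (its probe is named Gbp4 in the files), and Irf9 carries its older name Isgf3g.

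A feature entered when some group had it well above background on each of its 3 arrays. Features were fitted with limma 3.58.1 (R 4.3.3), using 4 group means and 5 contrasts. P-values were adjusted per contrast over all features by Benjamini-Hochberg, with a threshold of 0.05. The series design gives each group 3 mice. The number of arrays limits the precision.

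The genes and lists were chosen with earlier results of these data known. Named are all members past the threshold in a contrast, or the 3 smallest p where fewer than 3 passed, and 7 defining genes. Other pathway genes are named only past the threshold, at most 10 a contrast, and not all of those are reported here. Array values are printed for these, and other members by their changes; immune markers past the threshold were added after their values were seen. Alternatives were other scalings, background correction, filters and probe rules, slide and replicate blocks, array weights, fits on fewer groups and each array left out. Slide as a block without the array labelled WT dex replicate 1 was added after seeing the data.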

Additional observations from a re-analysis of the deposited data

How the results depend on the processing

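With dexamethasone in HESKOL liver the median of the 35 genes was below 0 under all 25 settings, but the number past the test varied. Several of these settings could not change the sign of that median. The replicate block, the fit on the 2 HESKOL groups alone and leaving out a WT array all keep the same HESKOL group means. The 5 genes lower with dexamethasone in HESKOL liver became 3 with median scaling, 2 with the unscaled deposited values, 2 without the filter, 0 with slide as a fixed block (with or without WT dex replicate 1), 10 with slide as a random block, 18 with array weights and 13 when the 2 HESKOL groups were fitted alone. Leaving out 1 array gave 0 to 14, with 0 without HESKOL dex replicate 2 or untreated HESKOL replicate 1 and 14 without WT dex replicate 1. The medians ran from -1.001 to -0.33 over the 13 other settings. In WT liver the count was 12 with array weights and 0 to 8 with 1 array left out, 8 without WT dex replicate 1. Irf1, the 1 gene that differed between treated genotypes, was lost (0 genes) with normexp, the unscaled deposited values, no filter, slide as a fixed block and a fit on the 2 groups alone, and leaving out 1 array gave 0 to 1. Of the 12 arrays, its call held only without WT dex replicate 1 or WT dex replicate 2. The difference of the effects gave 1 gene, Irf1, with array weights and 0 to 0 with 1 array left out. Without treatment 0 genes passed throughout. The cause of these shifts was not tested. Median scaling moved the median of all features with dexamethasone in HESKOL liver to 0.10. The unscaled values moved it to -0.35 in WT liver. Relative to these, the members' medians were -0.82 and -0.41, as in the scaling used. That match is fixed by arithmetic and is no check, because both settings shift all features of an array alike. Over the 13 other settings this distance ran from -1.02 to -0.43 in HESKOL liver and from -0.68 to -0.16 in WT liver. Deviations from the group means correlated at -0.40 to 0.62 over 18 pairs of arrays with the same replicate number. Over 36 pairs with unlike numbers they correlated at -0.71 to 0.71. This cannot decide whether the numbers pair the mice, because the 3 deviations of a group sum to 0 and the ranges are wide. With the replicate block 5 genes passed in HESKOL liver, 0 in WT liver, 0 between treated genotypes, 0 between untreated genotypes and 0 for the difference.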
